A study of Mus musculus with 12 samples.

Results

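The comparison described here sets Hdh109/109 striatal cells transfected with a construct labelled DNRest against the same line transfected with an empty vector. Its members are the 4 arrays with those titles, 2 a side, of the 12 arrays of the study, and every probe detected well enough to be tested. The study took total RNA from immortalised cell lines of mouse striatum and hybridised it to Illumina mouse expression BeadChips. The lines come from knock-in mice homozygous for a huntingtin allele (Hdh) with 109 CAG repeats, as in Huntington's disease, or with 7 CAG repeats (Hdh7/7). Each line was left untransfected, given the empty vector or given DNRest, with 2 arrays for each of the 6 groups. With 1 line per genotype, the repeat length and any other feature of a line cannot be told apart. Nothing in the labels tells separate cultures from repeat preparations of 1 culture, so the p-values reflect array-to-array spread that may be partly technical.

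REST is a zinc-finger repressor that binds a DNA element called RE1. There it recruits the corepressors CoREST and Sin3A with histone deacetylases and keeps neuronal genes silent in cells that are not neurons. Normal huntingtin holds REST in the cytoplasm of striatal neurons. Mutant huntingtin holds less of it, and neuronal genes such as Bdnf are then repressed. The labels give the construct only as DNRest, read here as a dominant-negative REST, a form that competes for the RE1 element without recruiting the corepressors. The titles and the transfection field give the construct, while the treatment protocol calls the cells of every sample untreated.

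Each array gives a bead signal per probe and a detection p-value against the array's background. A probe was called detected at a detection p under 0.01, and 15224 of 44505 probes were detected on at least 2 of the 12 arrays and tested. The empty vector arrays detected 13237 and 14370 probes and the DNRest arrays 12458 and 13209. Replicates correlated at r = 0.986 for the empty vector and r = 0.993 for DNRest over the tested probes. Empty vector replicate 1 was more alike DNRest replicate 2 (r = 0.992) than its own replicate. The source name of empty vector replicate 1 gives the other line, as it does for several arrays of other groups, while its title and genotype field give Hdh109/109. It correlated at 0.979 to 0.992 with arrays of its own line and at 0.900 to 0.913 with arrays of the other. The counts of calls, the REST target list and the interferon median are also given without that array. Other values include it, apart from ranges over the alternatives. Rest had a probe that no array of the 12 detected, so it was not tested and gives no check of the construct. The Htt probe was undetected on all 6 Hdh109/109 arrays. Of 11 striatal neuron markers with a probe 3 were detected on the Hdh109/109 arrays, while Ppp1r1b, Drd1, Drd2 and Gad1 were not. All 7 microglia markers with a probe were undetected, and 8 of 11 fibroblast and pericyte markers were detected.

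With quantile normalization, few probes were called for a change with DNRest, and nearly all of the calls were upward. With limma and Benjamini-Hochberg adjustment over all tested probes, 20 probes were higher with DNRest (0.131% of those tested) and 1 was lower (0.00657%) at an adjusted p under 0.05. They stand for 16 genes higher, 1 gene lower and a pair of probes with no gene name. The genes encode synaptic vesicle, neurite, channel, signalling and membrane proteins. All 20 higher probes rose by more than 2-fold in the fit, and all 20 lay above both untransfected arrays of the line as well as above both empty vector arrays. The detection filter favours rises in part. Celsr3, Slc5a5 and the unnamed probe ILMN_1229266 were detected only on the DNRest arrays of this line. They were tested only because they were high there, so their direction is no independent result. The log2 fold change of all tested probes had a median of -0.0014 and an SD of 0.295. Over the tested probes, 28 were 2-fold or more higher and 22 were 2-fold or more lower, and 767 and 995 had an unadjusted p under 0.05. Arrays did not overlap between the groups for 21.5% of probes in the higher and 23.6% in the lower direction, so the lack of overlap is common here and says little by itself.

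The split of calls depends on the scaling. With arrays scaled to a common median in place of quantile normalization, the median log2 fold change moved to -0.31, and 15 probes were called higher and 102 lower. The count depends on single arrays too. Without empty vector replicate 1, 268 probes were called, 144 higher and 124 lower, and all 21 stayed called. Without empty vector replicate 2, DNRest replicate 1 or DNRest replicate 2 the counts were 14, 11 and 15. Of the 21 probes, 11 were called under every alternative that tested them and with each of the 4 arrays left out. They belong to Lrp11, Unc13a, Mmp24, Celsr3, Ttc9b, Smpd3, Diras1, Gnptg and Syn1. Median scaling ended the calls of Slc17a6 (adjusted p = 0.179), Spire2 (0.232), Hcn2 (0.105), Cdk5r1 (0.230), Ppm1e and the unnamed probe ILMN_1241161. A fit on the 4 arrays compared alone ended those of Slc17a6 (adjusted p = 0.0592), Slc5a5 (0.0533), Hcn2 (0.0533), Spire2 (0.0983), Cdk5r1 (0.212), Adgrg2 (0.151), Ppm1e and ILMN_1241161. Without a detection filter Spire2, Hcn2 and Cdk5r1 had adjusted p = 0.0984, 0.0807 and 0.0576, and with a minimum fold of 1.2 they had 0.177, 0.0883 and 0.142. The size of a change in a dim probe depends on the background and offset used. Over the alternatives the log2 fold change ran from 1.30 to 2.60 for Unc13a, from 1.16 to 2.27 for Celsr3 and from 1.21 to 2.48 for Ttc9b, but from 2.92 to 3.46 for the brighter Lrp11. Further probes of Unc13a, Celsr3, Smpd3, Ppm1e, Cdk5r1, Slc5a5 and Adgrg2 were undetected on all 6 arrays of the line.

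**Figure D1:**
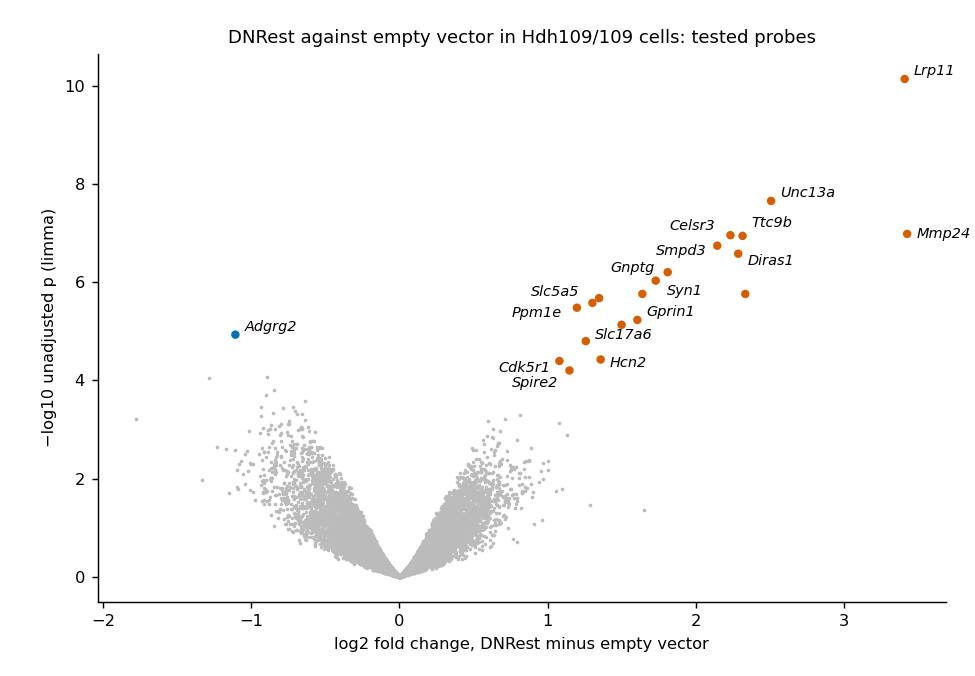
Log2 fold change of DNRest minus empty vector in Hdh109/109 cells (x axis) against the -log10 of the unadjusted limma p (y axis) for all 15224 tested probes. Orange points are the 20 probes called higher, the blue point is Adgrg2, the 1 probe called lower, and grey points were not called. With median scaling the median of all probes moves to -0.31 and 102 probes are called lower.

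The promoters of 4 called genes held letters close to the RE1 element, which is why they are shown. The search used CAGCACCNNGGACAGC, the left and right parts of RE1 with a gap of 2 bases, on both strands of the RefSeq promoters of build GRCm38.p6. Each promoter runs from 250 bases before to 50 after a gene's start. Of 27025 genes with a promoter there, 244 (0.903%) had a match with at most 2 mismatches over the 14 letters. Of the 17 called genes 15 had a promoter in this set, and 4 of them had such a match. The limit of 2 mismatches was chosen after the values were seen. Capitals mark the match. Ttc9b, a tetratricopeptide repeat protein, matched without mismatch on the opposite strand, 17 bases after the start, as did 7 genes (0.0259%) in all. Celsr3 had 1 mismatch at position -125 from the start and Syn1 had 2 at position -230. Slc17a6 had 2, on the opposite strand, 33 bases after the start. The sequences are given on the gene's strand.
Ttc9b, chr7:27653674-27653973, plus strand: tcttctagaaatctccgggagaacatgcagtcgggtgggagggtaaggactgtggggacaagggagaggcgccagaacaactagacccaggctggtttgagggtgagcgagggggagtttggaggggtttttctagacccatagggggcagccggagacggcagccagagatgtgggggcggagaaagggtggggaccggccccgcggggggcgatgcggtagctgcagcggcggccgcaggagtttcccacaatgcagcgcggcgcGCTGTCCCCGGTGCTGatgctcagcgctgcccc
Celsr3, chr9:108825795-108826094, plus strand: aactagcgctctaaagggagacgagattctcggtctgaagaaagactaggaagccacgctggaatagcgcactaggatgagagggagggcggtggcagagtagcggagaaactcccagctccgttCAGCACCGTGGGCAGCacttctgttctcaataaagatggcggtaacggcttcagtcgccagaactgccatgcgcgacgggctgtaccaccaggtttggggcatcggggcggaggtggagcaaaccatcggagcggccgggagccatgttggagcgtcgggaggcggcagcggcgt
Syn1, chrX:20920869-20921168, minus strand: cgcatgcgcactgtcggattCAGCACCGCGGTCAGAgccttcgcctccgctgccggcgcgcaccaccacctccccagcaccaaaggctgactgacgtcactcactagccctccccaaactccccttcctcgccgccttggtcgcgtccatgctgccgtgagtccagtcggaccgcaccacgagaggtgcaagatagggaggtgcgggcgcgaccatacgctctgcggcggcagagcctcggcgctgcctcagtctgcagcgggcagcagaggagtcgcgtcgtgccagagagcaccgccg
Slc17a6, chr7:51621580-51621879, plus strand: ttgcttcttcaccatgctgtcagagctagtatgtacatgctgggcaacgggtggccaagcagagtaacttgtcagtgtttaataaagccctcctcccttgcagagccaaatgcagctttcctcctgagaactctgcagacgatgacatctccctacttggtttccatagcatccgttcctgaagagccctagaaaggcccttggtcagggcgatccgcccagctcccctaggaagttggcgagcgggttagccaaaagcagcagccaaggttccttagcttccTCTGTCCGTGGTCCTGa
The match is a description of letters and not a binding site. Among the 82 tested genes with at most 2 mismatches, 4 were called and 35 had a log2 fold change above 0. Their median log2 fold change was -0.056, against -0.0094 for all 6955 tested genes with a promoter. Of the 6 tested genes with at most 1 mismatch, Ttc9b and Celsr3 were called. Scamp5, a secretory carrier membrane protein, had a log2 fold change of 0.47 (adjusted p = 0.347), and 1190005I06Rik, Lca5 and Taok3 had 0.17, -0.05 and -0.16. At most 3 mismatches, found in 7.16% of genes, added Diras1 and Adgrg2.

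Genes of the synaptic vesicle were among the clearest changes. Unc13a encodes the priming factor that readies vesicles for fusion. Its log2 level was 5.02 and 5.03 on the empty vector arrays and 7.63 and 7.44 on the DNRest arrays. Both DNRest arrays stood far above the other 4 arrays of the line, on which the probe was undetected. Unc13a was at least 3.41-fold higher with DNRest (fitted log2 fold change 2.51 ± 0.16, SE, n = 2 against 2; adjusted p = 1.67e-04), where the bound sets the DNRest mean against the lowest detected signal of the empty vector arrays. Syn1 encodes synapsin I, a coat protein of synaptic vesicles, whose promoter is shown above. One Syn1 probe read 5.30 and 5.56 with empty vector and 7.27 and 7.05 with DNRest. The other read 4.94 and 5.12 against 7.43 and 7.31. Both probes were undetected without DNRest and did not overlap. They were at least 2.63-fold (adjusted p = 0.00156) and at least 3.05-fold higher (adjusted p = 0.00239).

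Slc17a6, the vesicular glutamate transporter VGLUT2, differed in that it was already well expressed. Its log2 level was 8.23 and 8.37 with empty vector and 9.56 on both DNRest arrays. The untransfected arrays lay between, at 8.87 and 8.92. It rose 2.39-fold over the empty vector (log2 fold change 1.26 ± 0.16; adjusted p = 0.0134). That call was lost without empty vector replicate 2, DNRest replicate 1 or DNRest replicate 2 (adjusted p = 0.106, 0.201 and 0.152). Other vesicle genes of the list were not called. Rims2, an active zone scaffold, had a log2 fold change of 0.68 (adjusted p = 0.377) and Stx1a, a membrane SNARE, 0.46 (adjusted p = 0.353). The SNARE gene Vamp2 had a log2 fold change of -0.16 (adjusted p = 0.627).

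Genes of neurite growth and axon guidance formed the next group. Celsr3 encodes an atypical cadherin that guides axon tracts. On the empty vector arrays its log2 level was 4.65 and 4.70, and on the DNRest arrays 6.87 and 6.95. It was undetected without DNRest, and both DNRest arrays lay above the other 4 arrays of the line. Celsr3 was at least 2.22-fold higher (fitted log2 fold change 2.23 ± 0.17; adjusted p = 3.45e-04). Gprin1, a G protein-regulated inducer of neurite outgrowth, went from 4.62 and 4.74 to 6.42 and 6.14. The probe was detected only on the DNRest arrays of the line. Gprin1 was at least 1.44-fold higher (adjusted p = 0.00592), and the call was lost without empty vector replicate 2 (adjusted p = 0.0759) or DNRest replicate 1 (adjusted p = 0.122). Cdk5r1 encodes p35, the activator of the neuronal kinase Cdk5. It read 6.49 and 6.16 with empty vector and 7.43 and 7.38 with DNRest, and it was detected on all 6 arrays. Its rise of 2.11-fold (adjusted p = 0.0305) was lost without empty vector replicate 2, DNRest replicate 1 or DNRest replicate 2 (adjusted p = 0.265, 0.409 and 0.241). Spire2, an actin nucleator, read 7.03 and 7.06 against 8.26 and 8.11. It rose 2.22-fold (adjusted p = 0.0454), and the same 3 omissions gave adjusted p = 0.390, 0.545 and 0.241.

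One ion channel was called. Hcn2, a channel opened by hyperpolarisation that paces neurons and heart cells, read 6.90 and 7.09 with empty vector and 8.44 and 8.28 with DNRest. The untransfected arrays were lower than both, at 6.73 and 6.39. Hcn2 rose 2.56-fold (log2 fold change 1.36 ± 0.19; adjusted p = 0.0300). Without empty vector replicate 2, DNRest replicate 1 or DNRest replicate 2 the adjusted p was 0.199, 0.409 and 0.167. Slc5a5, the sodium-iodide symporter known from the thyroid, read 5.06 and 4.90 against 6.29 and 6.28. It was undetected in all arrays of the line but those with DNRest and was at least 1.44-fold higher (adjusted p = 0.00308). Leaving out either DNRest array gave adjusted p = 0.0674 and 0.0505.

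The change with the smallest adjusted p was in none of the neuronal lists. Lrp11 encodes a membrane protein related to the low-density lipoprotein receptor. Its log2 level was 7.76 and 7.65 with empty vector, 11.08 and 11.15 with DNRest, and 7.98 and 8.03 in untransfected cells. The DNRest arrays stood alone and the untransfected and empty vector arrays lay close together. Lrp11 rose 10.6-fold (log2 fold change 3.41 ± 0.12; adjusted p = 1.09e-06). Ttc9b, whose promoter holds all 14 RE1 letters, read 4.71 and 4.66 against 6.84 and 7.16. It was undetected without DNRest and at least 2.36-fold higher with it (adjusted p = 3.45e-04).

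Mmp24 encodes a membrane-type matrix metalloproteinase of the brain, and its probes disagreed. The called probe read 6.28 and 5.58 with empty vector and 9.32 and 9.39 with DNRest. This is a fitted rise of 10.8-fold (log2 fold change 3.43 ± 0.25; adjusted p = 3.45e-04). The probe was detected on 1 of the 2 empty vector arrays. Replicate 2 lay below the lowest detected signal of its array, 5.65, so the fold includes background signal. A brighter Mmp24 probe read 10.63 and 10.04 against 10.61 and 10.69, with overlapping arrays and a log2 fold change of 0.32 (adjusted p = 0.529). A further Mmp24 probe was undetected on all arrays of the line. The brighter probe stands for Mmp24 in counts of genes, so those give 15 genes higher of 8487 tested (0.177%).

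Several called genes encode enzymes and signalling proteins. Smpd3, the neutral sphingomyelinase that makes ceramide at membranes, read 6.15 and 6.39 with empty vector and 8.49 and 8.34 with DNRest. Untransfected cells lay between, at 7.19 and 7.05. The rise over the empty vector was 4.42-fold (log2 fold change 2.15 ± 0.17; adjusted p = 4.56e-04). Diras1, a small GTPase of the Ras family, went from 6.07 and 6.13 to 8.41 and 8.36. This is 4.88-fold (adjusted p = 5.68e-04), and its untransfected arrays lay on either side of the empty vector ones, at 6.19 and 5.95. Ppm1e, a serine/threonine phosphatase, read 6.23 and 6.44 against 7.58 and 7.48 and rose 2.29-fold (adjusted p = 0.00358). Its adjusted p was 0.0945 without DNRest replicate 1, 0.152 with median scaling and 0.0983 with only the 4 arrays compared in the fit.

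Gnptg encodes a subunit of the phosphotransferase that tags lysosomal enzymes with mannose 6-phosphate, and it was bright before DNRest. One probe read 9.75 and 9.31 with empty vector and 11.33 and 11.35 with DNRest, and the other 9.78 and 9.39 against 11.23 and 11.22. The probes gave like values, with empty vector replicate 1 above replicate 2 in both. The rises were 3.51-fold (adjusted p = 0.00118) and 3.12-fold (adjusted p = 0.00239). The unnamed probe ILMN_1241161 rose by 1.35 on the log2 scale (adjusted p = 0.00266), and the unnamed probe ILMN_1229266 was at least 2.27-fold higher (adjusted p = 0.00698). The first lost its call without DNRest replicate 1 (adjusted p = 0.0645), with median scaling (0.109) and with only the 4 arrays compared in the fit (0.0660). The second lost it without empty vector replicate 2, DNRest replicate 1 or DNRest replicate 2 (adjusted p = 0.0759, 0.122 and 0.0892).

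Adgrg2, an adhesion G protein-coupled receptor known from the epididymis, was the 1 gene called lower. Its log2 level was 6.26 and 6.50 with empty vector, 6.28 in both untransfected arrays and 5.24 and 5.30 with DNRest. The probe was undetected on both DNRest arrays and detected on the other 4. It was at least 1.32-fold lower (fitted log2 fold change -1.11 ± 0.14; adjusted p = 0.0104). The call was lost without empty vector replicate 2, DNRest replicate 1 or DNRest replicate 2 (adjusted p = 0.106, 0.201 and 0.120), without background correction (adjusted p = 0.0809) and with a trended and robust variance (adjusted p = 0.0897).

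**Figure D2:**
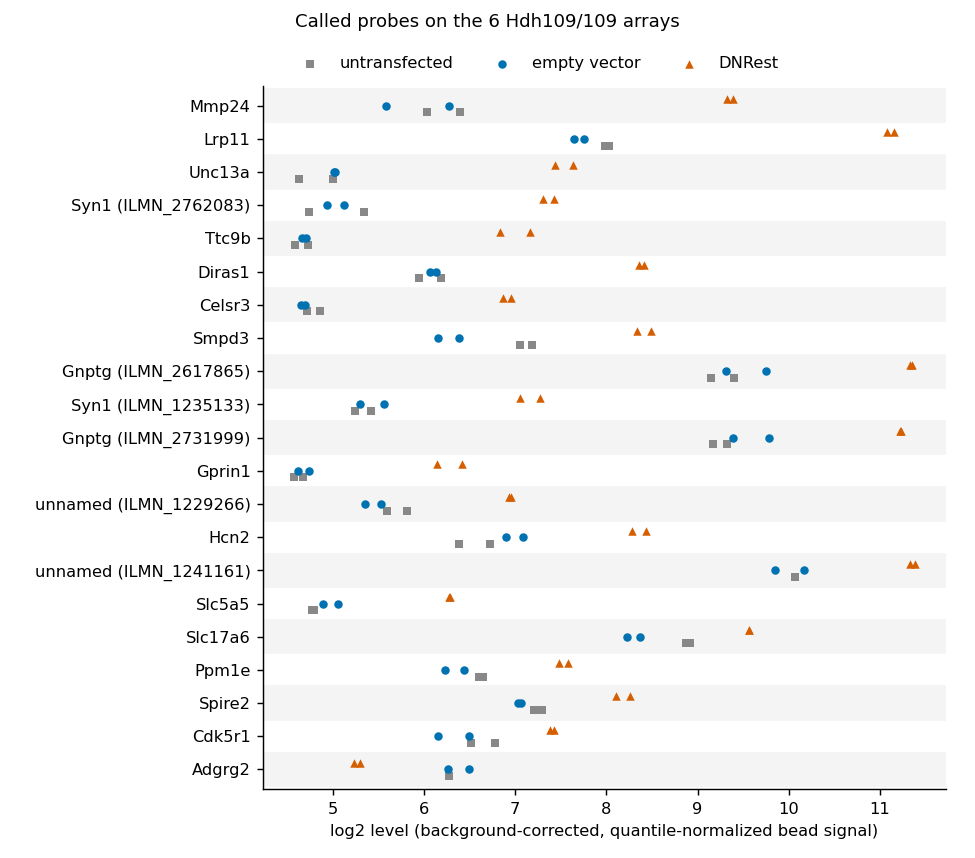
Log2 level (background-corrected, quantile-normalized bead signal, x axis) of the 21 called probes on the 6 arrays of the Hdh109/109 line, 1 symbol per array. For the 20 probes called higher both DNRest triangles lie to the right of the empty vector circles and untransfected squares, and for Adgrg2 they lie to the left.

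Untransfected cells are a further reference that the contrast did not use. For 11 of the 20 higher probes the untransfected mean lay above the empty vector mean. The probes were chosen by a low empty vector level beside DNRest, which favours that order, so the count says little. Slc17a6 and Smpd3 had the clearest gaps, and Lrp11, Spire2, Ppm1e and Cdk5r1 had smaller ones. For Hcn2, Slc5a5 and both Gnptg probes the untransfected mean lay below. Some of the 20 probes, such as those of Celsr3 and Slc5a5, were undetected in both groups, so their order is that of background signal. The difference between untransfected and empty vector cells was not tested here.

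The same contrast in Hdh7/7 cells shares no array with this one, although the fit shares its variances. All 21 called probes had the same sign there, and 12 of the 20 higher probes were called, beside 15 called of all tested probes (0.0985%). The count of signs includes Celsr3, Smpd3, Slc5a5, Slc17a6, Adgrg2 and the unnamed probe ILMN_1229266. These were undetected on the transfected Hdh7/7 arrays, so their sign there is that of background signal, as for Slc5a5 with 0.06. The share of all tested probes with the same sign in both lines was not counted. The response in Hdh7/7 cells was of like size for Lrp11 (log2 fold change 3.35 ± 0.12 there), Diras1 (2.46 ± 0.19) and Gnptg (1.5 ± 0.16). Their 95% intervals of the difference between the lines ran from -0.32 to 0.43 for Lrp11, from -0.76 to 0.42 for Diras1 and from -0.20 to 0.82 for Gnptg. The intervals do not show that the responses were equal. Ttc9b, undetected with empty vector in both lines, was at least 2.36-fold higher with DNRest in Hdh109/109 cells and at least 1.30-fold higher in Hdh7/7 cells. These bounds do not rank the lines. The lowest detected signals of the empty vector arrays were 5.87 and 5.65 in Hdh109/109 cells but 5.99 and 6.73 in Hdh7/7 cells. For 16 of the 20 higher probes the fitted log2 fold change was higher in Hdh109/109 cells, and Adgrg2 fell further there in the fit. The probes were chosen by their change in Hdh109/109 cells, which favours larger values there, so this count does not compare the lines. Several of these probes were also undetected in at least 1 of the groups compared.

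For 8 of the 21 probes the unadjusted 95% interval of the difference left out 0, but no probe of the 15224 was called for a difference between the lines. The intervals carry the same limit, since the 21 probes were chosen by their change in Hdh109/109 cells. The smallest adjusted p was 0.294, and 1247 probes had an unadjusted p under 0.05. Of the 8, Cdk5r1 alone was detected in all 4 groups. It was brighter in Hdh7/7 cells, at 8.07 and 7.95 with empty vector and 8.25 and 8.27 with DNRest, and its log2 fold change was 0.25 there against 1.08 (interval of the difference 0.34 to 1.32). Celsr3, Smpd3, Slc5a5, Slc17a6, Adgrg2 and the unnamed probe ILMN_1229266 were undetected on the transfected Hdh7/7 arrays, so their folds cannot be set beside those of Hdh109/109 cells. Celsr3 had levels of 4.64 and 4.84 there with empty vector and 5.55 and 5.28 with DNRest. Smpd3 had 4.68 and 4.62 against 5.7 and 5.38. Slc5a5 had 4.85 and 4.66 against 4.69 and 4.93, and Slc17a6 had 4.93 and 4.76 against 5.27 and 4.85. Gprin1 was undetected with empty vector in both lines and went from 5.36 and 4.86 to 7.93 and 7.75 in Hdh7/7 cells. It was at least 2.78-fold higher there and at least 1.44-fold higher in Hdh109/109 cells. Hdh7/7 empty vector replicate 2 detected 10295 probes, the fewest of the 12 arrays, and without replicate 1 of that group 825 probes were called for the difference. Leaving out each of the other 7 transfected arrays left 0 called.

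**Figure D3:**
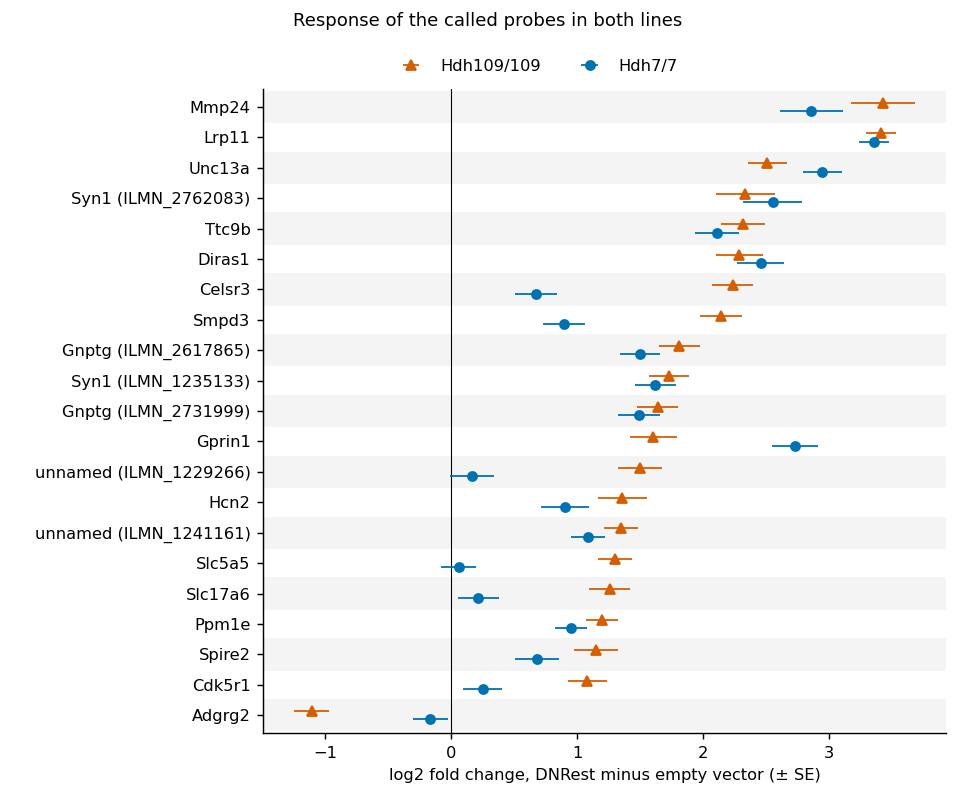
Log2 fold change of DNRest minus empty vector with its standard error (x axis) for the 21 called probes in Hdh109/109 cells (orange triangles) and Hdh7/7 cells (blue circles). Lrp11, Diras1 and Gnptg lie close together in the lines. Celsr3, Smpd3, Slc5a5, Slc17a6, Adgrg2 and ILMN_1229266 were undetected on the transfected Hdh7/7 arrays, and Unc13a, Syn1, Ttc9b and Gprin1 were undetected with empty vector in both lines, so their points are fitted values that include background signal.

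The lists of known REST target genes hold 122 genes, of which 106 have a probe and 32 were tested. Of the 32 genes 7 were called higher and 0 lower, beside 0.177% and 0.0118% of all genes tested. The lists were written with earlier results of these data known, so the difference between these shares is not independent evidence. They are Unc13a, Syn1, Slc17a6, Hcn2, Celsr3, Gprin1 and Cdk5r1, described above. The log2 fold changes of the 32 genes have a median of 0.24 (0.22 when undetected sides are held at the bound). Of the 32 genes 25 lay above 0 and 7 below, beside 4071 above and 4416 below among all 8487 genes tested. With median scaling 4 were called higher and the list median was -0.10, against a median of -0.31 over all probes. Without empty vector replicate 1 the count was 7 and the list median 0.30. The count was 3 without empty vector replicate 2, 3 without DNRest replicate 1 and 4 without DNRest replicate 2. It was 4 with only the 4 arrays compared in the fit and 2 with detection on all 12 arrays, a filter that leaves out genes silent in any group. A gene silent in these cells could enter the test only by being detected elsewhere, in some cases only with DNRest, so these figures describe the tested members alone. Of the 74 list members with a probe that were not tested, 72 had no probe detected on any of the 6 arrays of the line.

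By role, the vesicle release list had 12 members tested, 3 of them higher, with a median log2 fold change of 0.26. The list of neurite, cytoskeleton and adhesion genes had 17 tested, 3 of them higher, with a median of 0.24. Just short of the threshold there was Rtn2, a reticulon of the endoplasmic reticulum, at 5.30 and 5.49 with empty vector and 6.13 and 6.30 with DNRest. It was undetected on both empty vector arrays and at least 1.37-fold higher with DNRest (adjusted p = 0.0799). Tubb3, the neuronal beta-tubulin, had a log2 fold change of 0.49 (adjusted p = 0.517). For Stmn2, a regulator of microtubules in growing axons, the value was 0.43 (adjusted p = 0.372). Stmn2 arrays did not overlap, at 9.90 and 9.87 against 10.30 and 10.34, but untransfected cells were higher than both, at 10.83 and 10.81. Among channels and receptors 2 of 25 genes with a probe were tested, Hcn2 and the sodium channel Scn3a, which had a log2 fold change of 0.07. Among secretory granule genes and neurotrophins 1 of 13 was tested. This was Bdnf, the neurotrophin that striatal neurons depend on, at 7.62 and 7.42 with empty vector and 7.39 and 7.23 with DNRest. Its log2 fold change was -0.21 (adjusted p = 0.565).

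Neuronal transcription and RNA-binding factors, which REST also represses, had 4 of 25 genes tested and 0 called. Celf4, a splicing regulator, had a log2 fold change of 0.34 and Neurod1, a neurogenic factor, 0.35. Ebf3 had -0.02 and Insm1, undetected in both groups, -0.40. Of pan-neuronal markers 4 of 10 were detected on the 4 arrays compared. The mean log2 level over all 10 was 5.71 and 5.80 with empty vector and 6.14 and 6.00 with DNRest. That mean includes undetected markers and Syn1, the 1 marker called (log2 fold change 1.73). Tubb3, Stmn2 and Map2 had 0.49, 0.43 and 0.24 and were not called. Over the 4 tested markers the mean was 7.25 and 7.31 in untransfected cells, 6.93 and 7.08 with empty vector and 7.82 and 7.64 with DNRest. Rbfox3, Snap25, Syt1, Nefl, Elavl4 and Syp were undetected on the 4 arrays compared. The bulk signal cannot tell a change in all cells from a change in some of them.

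**Figure D4:**
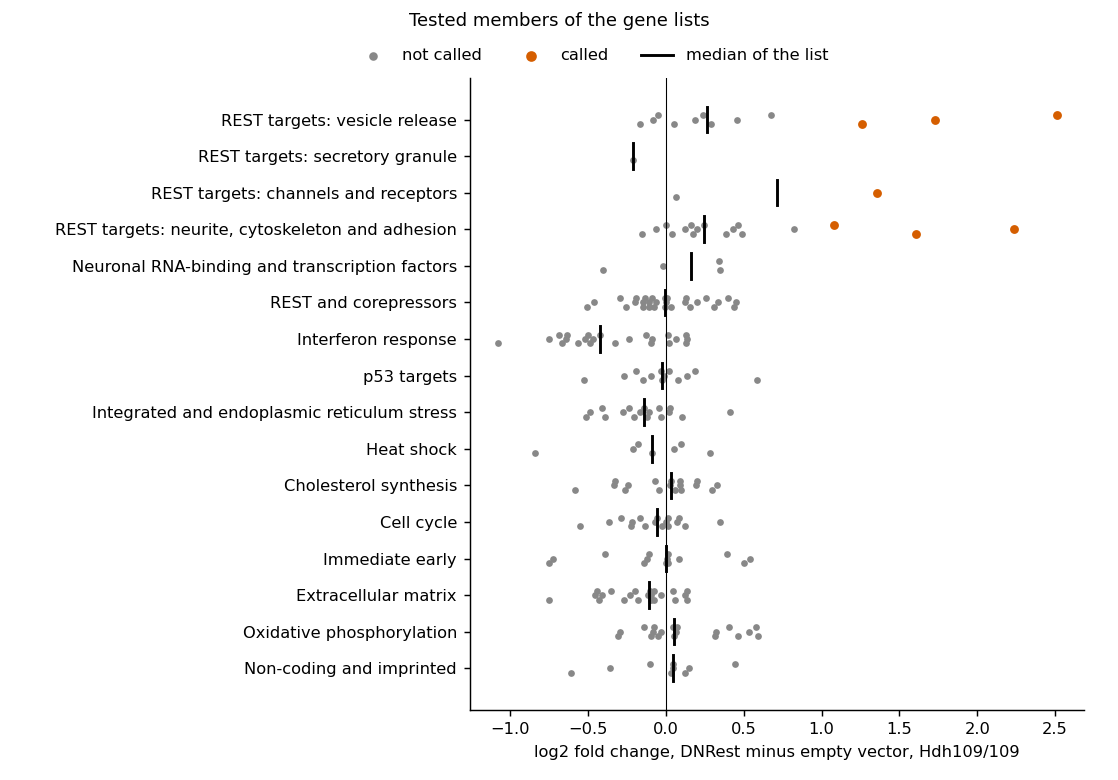
Log2 fold change of DNRest minus empty vector in Hdh109/109 cells (x axis) for each tested member of 16 gene lists, with called genes in orange and the list median as a black bar. Of the list members shown 7 were called, all in the lists of REST targets, and called genes outside the lists are not shown. The lists were written with earlier results of these data known. Under median scaling the median of all probes moves to -0.31.

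The repressor machinery itself was not called as changed. Of 29 tested genes of REST cofactors and regulators 0 were called (limma; 3 at an unadjusted p under 0.05), with a median log2 fold change of -0.005. Rcor1, which encodes CoREST, read 10.93 on both empty vector arrays and 10.92 and 10.96 with DNRest. Sin3a read 8.77 and 8.71 against 8.71 and 8.76. The groups overlapped for both genes. The members furthest from 0 were Rbbp7, a histone-binding subunit of deacetylase complexes (-0.51; adjusted p = 0.359), Csnk1a1, a kinase that marks REST for degradation (-0.46; 0.543), Usp7, a deubiquitinase (0.45; 0.359), and Hdac4, a class II deacetylase (0.44; 0.591).

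Interferon response genes were the list with the lowest median, -0.42, although 0 of 23 tested genes were called (limma; 6 at an unadjusted p under 0.05). Of the 23 genes 17 had a lower mean with DNRest, beside 4416 of all 8487 genes tested. Of the 23 genes 13 were lower with arrays that did not overlap, beside 23.9% of all genes tested. Ifit3, an antiviral effector, read 10.21 and 10.95 with empty vector and 9.28 and 9.72 with DNRest (log2 fold change -1.08; adjusted p = 0.347). The RNA sensors Ifih1 and Ddx58 had log2 fold changes of -0.75 (adjusted p = 0.347) and -0.67 (adjusted p = 0.614), and the GTPase gene Mx2 had -0.68 (adjusted p = 0.348). All 23 genes were higher on each of the 4 transfected arrays than on both untransfected arrays of the line. Their mean log2 level was 6.61 and 6.62 in untransfected cells, 9.46 and 9.71 with empty vector and 9.13 and 9.36 with DNRest. Both empty vector means lay above both DNRest means, and replicate 2 was above replicate 1 for 17 genes with empty vector and for 19 with DNRest. The list median was -0.53 without empty vector replicate 1, -0.24 without empty vector replicate 2, -0.27 without DNRest replicate 1, -0.11 with detection on all 12 arrays, and -0.75 with median scaling, where all probes had a median of -0.31. In Hdh7/7 cells it was -0.07. Ifit3, Ifih1 and Mx2 were undetected on all Hdh7/7 arrays, while Ddx58 was detected on some. The Hdh7/7 median thus includes background values and does not measure the response of the list there. Whether transfection bears on the REST target values was not tested.

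**Figure D5:**
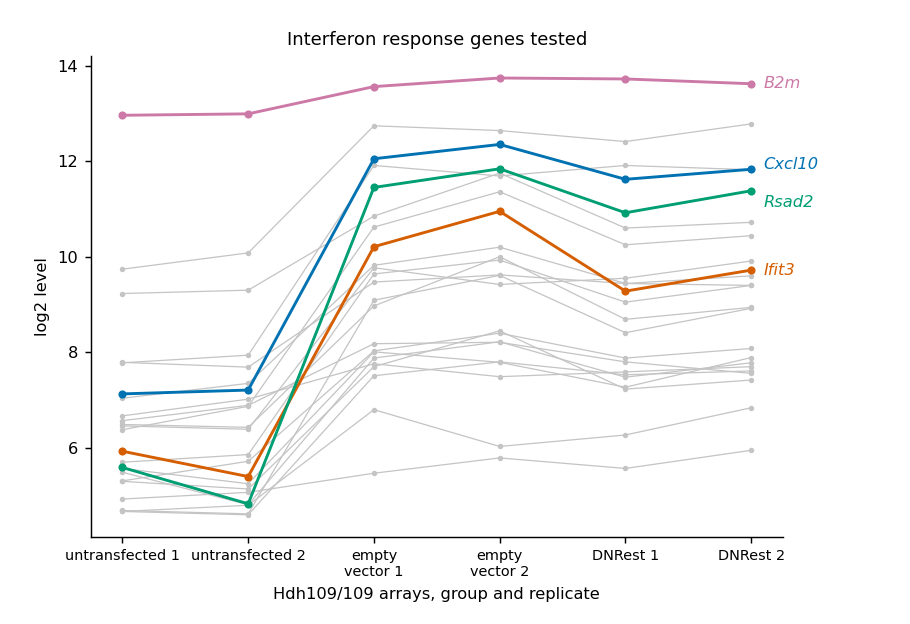
Log2 level (y axis) of the 23 tested interferon response genes on the 6 Hdh109/109 arrays (x axis), 1 line per gene with 4 genes in colour. Every gene is higher on the 4 transfected arrays than on the untransfected ones, and Ifit3 goes from 10.21 and 10.95 with empty vector to 9.28 and 9.72 with DNRest.

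The remaining lists held 0 called genes each. Of all 8487 genes tested 4416 had a log2 fold change below 0. Stress genes of the endoplasmic reticulum and the integrated stress response had a median log2 fold change of -0.14, with 13 of 17 tested genes below 0. The chaperone Hspa5 had -0.51 (adjusted p = 0.372) and the transcription factor Atf4 -0.49 (adjusted p = 0.359). Extracellular matrix genes had a median of -0.11, with 17 of 22 below 0 and the collagen gene Col3a1 at -0.75 (adjusted p = 0.385). The heat shock list had a median of -0.09, and its chaperone Hsp90aa1 read 8.68 and 9.56 against 8.32 and 8.24 (log2 fold change -0.84; adjusted p = 0.347). Medians of p53 targets (-0.03), cell cycle genes (-0.05), immediate early genes (0.002), cholesterol synthesis genes (0.03), oxidative phosphorylation genes (0.05) and non-coding or imprinted genes (0.04) were near that of all genes, -0.01. The immediate early gene Fos had -0.72 (adjusted p = 0.347), the imprinted gene Mest -0.61 (adjusted p = 0.394) and the respiratory chain gene Ndufa2 0.58 (adjusted p = 0.377).

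Outside the lists, the uncalled genes with the smallest p-values mixed several functions. Among the higher ones were Mapk11, a p38 kinase, at 8.88 and 9.03 against 9.56 and 9.55 (log2 fold change 0.60; adjusted p = 0.254), and Slc6a17, a transporter of synaptic vesicles (0.59; 0.284). Nmnat2, which keeps axons alive by making NAD, was undetected with empty vector and at least 1.65-fold higher with DNRest (adjusted p = 0.263). Npcd, Galnt17, Afdn, Mras, Wiz and Gas2l1 had log2 fold changes of 0.81, 0.66, 0.89, 0.49, 0.62 and 0.52. Among the lower ones Ifrd1, a transcriptional coregulator, came closest to the threshold, at 8.89 and 9.54 against 7.94 and 7.92 (log2 fold change -1.29 ± 0.20; adjusted p = 0.0597). The translation factors Eif3m and Eif2d had -0.64 (adjusted p = 0.15) and -0.69 (adjusted p = 0.217), and the alpha-tubulin gene Tuba1a had -0.78 (adjusted p = 0.185). Fh1, the fumarate hydratase of the citric acid cycle, and Eci2, an isomerase of fatty acid oxidation, had -0.66 and -0.64. Tbrg1 had -0.71. Tbc1d24, Ttc39c and Ube2w were undetected on both DNRest arrays, with fitted values of -0.71, -0.85 and -0.75. Ttc39c was at least 1.22-fold lower with DNRest, and for Tbc1d24 and Ube2w the bound shows no fall. The arrays of the groups did not overlap for any of these genes, which was part of the rule that chose them.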

How the data were processed

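The authors deposited a table of unnormalized bead signals, a linear intensity for 44505 probes on 12 arrays, and a detection p-value beside each signal, per the file headers. The deposited series matrix holds log2 values with a floor that is 0.1 on the linear scale. By identifier its rows correlated with the bead signals at 0.017 to 0.034 only, so it served for counts over unnamed rows. The array software and genome build are not given in the sources used here. Limma is named, without a version, in the submitters' processing notes. The linear intensity was background-corrected with the detection p-values and an offset of 16 and quantile normalized (neqc, limma 3.58.1, R 4.3.3), and levels are log2 values. Probes detected at p under 0.01 on at least 2 arrays were fitted with 1 mean per group over all 12 arrays (6 residual degrees of freedom, eBayes). P-values are two-sided and adjusted by Benjamini-Hochberg over 15224 probes, and the fit was tested on simulated data. Groups follow the titles. In 6 samples the source name names the other line.

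A gene stands for its brightest probe, 8487 in all. The platform annotation gave 28471 probes 1 symbol, 10 several and 16024 none, and 0 symbols changed through Entrez IDs in RefSeq (GRCm38.p6). Where both arrays of the dimmer group were undetected, the fold is a bound against the higher of each array's lowest detected signal and the probe's own signal. The number of arrays limits the precision. Members and gene lists were chosen with earlier results of these data known. Named genes are Htt, Rest, all called genes, up to 10 uncalled genes per direction with the smallest p and no overlap, and up to 4 members of each list by size of change. Rcor1, Sin3a, Stx1a, Vamp2 and the genes with at most 1 RE1 mismatch were chosen after their values were seen. Alternatives covered scaling, background, filters, variance model, arrays in the fit, a minimum fold, a replicate block and each array left out.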

Additional observations from a re-analysis of the deposited data

How the results depend on the processing

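Of the probes called in Hdh109/109 cells no value changed sign under any alternative. The count of 21 was 117 with median scaling, 33 without background correction (20 higher, 13 lower), 11 with detection on all 12 arrays, 13 with only the 4 arrays compared in the fit and 9 in the series matrix. It ranged from 11 to 268 when 1 array was left out. It was 23 with an offset of 50, 18 without a detection filter, 23 with detection on at least 2 of the arrays compared, 26 with a trended and robust variance and 18 with a minimum fold of 1.2. In Hdh7/7 cells the count of 15 was 4 with detection on all arrays, 0 with only the arrays compared (limma, 643 at an unadjusted p under 0.05) and 7 to 1129 with 1 array left out. For the difference between the lines the count of 0 was 2 with median scaling, 2 in the series matrix and 0 to 825 with 1 array left out. The cause of these shifts was not tested beyond the smaller number of probes or arrays that a setting itself brings. An arm left with 1 array is assumed to vary like the other groups.

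With a replicate block the counts were 18 in Hdh109/109 cells, 15 in Hdh7/7 cells and 0 for the difference. Spire2, Hcn2 and Cdk5r1 were then not called (adjusted p = 0.110, 0.0663 and 0.0843). Same-numbered empty vector and DNRest arrays in Hdh109/109 cells deviated together at r = 0.0289 only. This single correlation cannot exclude pairing, and the labels do not say what the replicate number marks. Most interferon response genes were higher on the later-numbered array, both with empty vector and with DNRest. Whether the numbers pair the arrays is thus not known. The lowest signals detected on the empty vector arrays, 5.87 and 5.65 on the log2 scale, set the bounds for genes undetected there.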
